A study of Mus musculus with 2 samples.

Results

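The genes described here encode the subunits of the respiratory chain that are made from nuclear DNA. They were chosen by name: every gene of the deposited matrices whose symbol starts with Nduf, Uqcr, Cox4, Cox5, Cox6, Cox7, Cox8 or Atp5, without pseudogene names, with at least 20 UMIs over both libraries. A UMI, a unique molecular identifier, marks one captured RNA molecule. The rule matched 90 symbols and left 88 members of 32285 genes, of which 21948 reached 20 UMIs. Cox8c had 0 UMIs, and Ndufb1-ps was left out for its name. The members are 36 complex I genes, 8 complex I assembly factors, 8 complex III genes, 19 complex IV genes and 17 complex V genes. Ndufa4 and Ndufa4l2 are counted with complex IV.

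The samples were the thalamus of 2 wildtype C57BL/6J mice, 2 months old and given no treatment, with 1 single-cell library from each animal, made with the 10x 3' v3 kit. Most thalamic neurons are relay cells that project to the cortex, and the adjoining habenula is part of the epithalamus. There is no treated or mutant group, so the comparisons are between cell classes within the same 2 animals. The cells were released by papain, protease and dispase digestion, and the recovered cells need not match the tissue's composition. After filtering, 6185 cells of mouse 1 and 9176 cells of mouse 2 remained, with medians of 17998 and 14759 UMIs. Members made up 1.41% and 1.47% of all UMIs in the 2 libraries, and the libraries shared 36 barcodes.

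The respiratory chain sits in the inner mitochondrial membrane. Complex I takes electrons from NADH, complex III passes them to cytochrome c, complex IV hands them to oxygen, and complex V, the ATP synthase, uses the resulting proton gradient to make ATP. A few subunits exist in more than one version, encoded by separate genes, and some versions are known from particular tissues: Cox6a2 and Cox7a1 from heart and skeletal muscle, Cox4i2 from lung and from oxygen-sensing cells, and Ndufa4l2 as a hypoxia-inducible relative of Ndufa4.

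Clusters were named from marker genes, and members, other genes of the pathway and ribosomal genes were not used to form them. Classes carry the ending "-like", since only markers name them. Only classes with 20 cells or more in both animals were tested, which left 4 neuron-like and 10 non-neuronal classes, 14 in all. Their marker lists were high in the class they name: the summed level of the 6 pericyte markers was 27327 and 23176 CPM (UMIs scaled to the total of the sum) in pericyte-like cells, and at most 4314 CPM in any other class. The 7 habenular markers summed to 8221 and 7102 CPM in habenular neuron-like cells and to at most 248 CPM elsewhere. The glutamatergic list was less exclusive, at 8713 and 6642 CPM in glutamatergic neuron-like cells but up to 4228 CPM in astrocyte-like cells. Levels below are CPM of the UMIs summed per mouse and class. UMIs from the 3' end do not scale with transcript length, so levels are set side by side within a gene family. Capture and the assignment of reads shared by similar copies may still differ between genes. Shares within a family are therefore a description of UMIs.

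Some clusters stood apart before any comparison was made. Of the 28 named clusters in the tested classes, 6 had members below 0.5% of UMIs in each mouse, between 0.176% and 0.418%. These were 4 neuron-like clusters, 1 astrocyte-like cluster and 1 oligodendrocyte precursor-like cluster, holding 496 cells of mouse 1 and 1157 of mouse 2. The same clusters had ribosomal protein genes at 0.156% to 0.399% of UMIs, against 0.917% to 11.9% in the other 22, whereas their mitochondrially encoded UMIs, 3.84% to 7.13%, lay within the range of the others (1.31% to 8.02%). Members in the other 22 clusters ranged from 0.652% to 3.46%. Comparisons that pool neuron-like cells were also run without the 4 neuron-like clusters whose median UMI count was under 34290, which are those same 4. The low-member astrocyte-like and oligodendrocyte precursor-like clusters were kept, so this setting raises the neuronal level by construction. What sets the cells of the 6 low-member clusters apart was not tested.

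**Figure D1:**
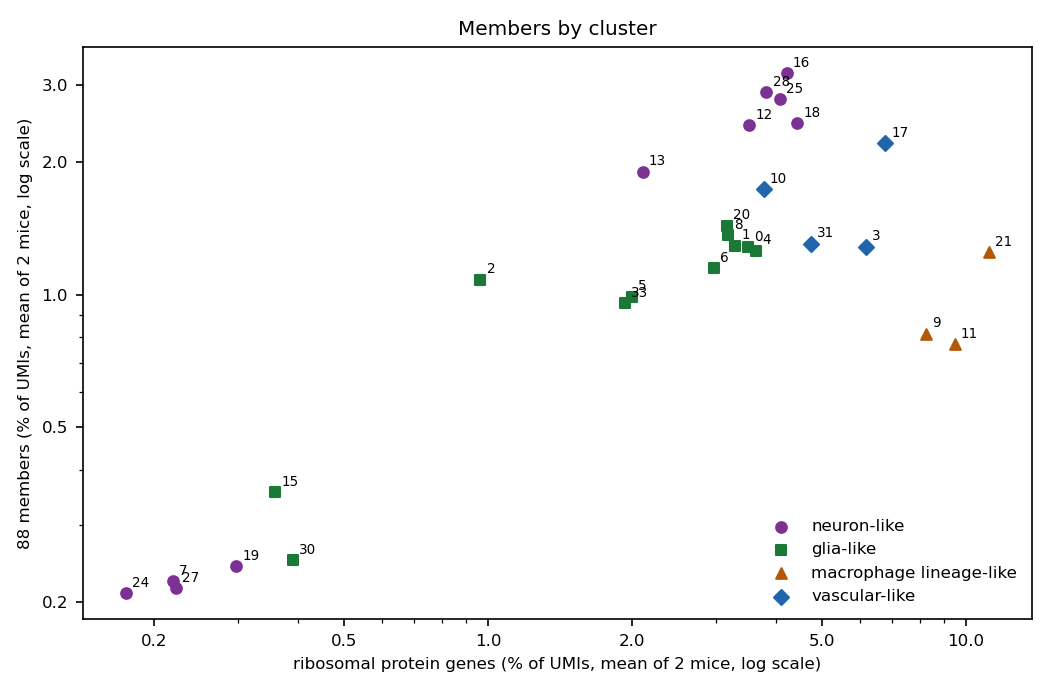
Each point is one named cluster (number as label), with ribosomal protein genes on the x axis and the 88 members on the y axis, both in % of UMIs as the mean of 2 mice on log scales. Clusters 7, 15, 19, 24, 27 and 30 lie apart at the lower left, and the remaining 22 lie above 0.652% in each mouse.

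Promoter sequence was examined because most members were high and low in the same classes. RefSeq promoters (build GRCm38.p6, 250 bases before to 50 after the start) were found for 72 of the 88 members. The element GCGCATGC, the core that nuclear respiratory factor 1 recognises, searched on both strands, was present in 11 of 72 members (15.3%) and in 3.05% of 27025 genes. ATGGCGG, a YY1-like element, was present in 16.7% of members and 4.69% of genes, AAGGTCA, an ERR-like element, in 9.72% and 5.38%, and CCGGAAGT, an ETS-like element, in 6.94% and 4.31%. A match is a run of letters and was not tested for binding. The 180 bases before the start are printed for 2 members that were called in the comparisons of neurons below and hold an element there, with 0 bases in an annotated exon of the gene. Capitals mark the element: the NRF1-like match in Ndufa11, an accessory subunit of complex I, where the matches on the 2 strands overlap, and the ERR-like match, on the reverse strand, in Atp5g3, one of 3 genes for the c subunit of the ATP synthase.
Ndufa11 (chr17:56717582-56717761, plus strand): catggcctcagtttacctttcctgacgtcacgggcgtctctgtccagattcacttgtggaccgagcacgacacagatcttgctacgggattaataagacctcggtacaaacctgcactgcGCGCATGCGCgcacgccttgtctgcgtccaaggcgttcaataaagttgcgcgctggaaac
Atp5g3 (chr2:73911327-73911506, minus strand): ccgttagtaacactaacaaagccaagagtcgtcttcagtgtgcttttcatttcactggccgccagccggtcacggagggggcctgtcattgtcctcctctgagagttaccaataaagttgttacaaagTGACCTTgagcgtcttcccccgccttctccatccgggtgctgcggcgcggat
The Ndufa11 element starts 60 bases before the transcription start and the Atp5g3 element 52 bases before it.

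Summed over all members and all cells of a class, GABAergic neuron-like cells had the largest share of UMIs, 3.23% (mouse 1) and 2.55% (mouse 2). These are 48 and 63 cells of a single cluster, and this is the one neuron-like class without a low-member cluster. Habenular neuron-like cells had 2.39% and 2.24%, which pools 3.46% and 2.93% in cluster 16 with 0.233% and 0.251% in cluster 19. Without the low-UMI clusters the habenular class was therefore above the GABAergic class in both mice, and glutamatergic neuron-like cells were at 1.78% and 2.42%. The order among neuron-like classes thus depends on those clusters. In the full classes smooth muscle-like cells had 2.54% and 1.89%. Glutamatergic neuron-like cells, the relay neurons, had 1.41% and 1.79%, and unresolved neuron-like cells 2.31% and 1.66%. Pericyte-like cells had 1.98% and 1.4995%. The lowest levels were in microglia-like cells (0.816% and 0.654%), oligodendrocyte precursor-like cells (0.769% and 0.921%) and astrocyte-like cells (0.921% and 1.01%). All other classes were above these 3 low classes in both mice, the closest being border macrophage-like cells at 1.09% in mouse 2. Most neighbours in the middle of the order overlapped between mice.

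Averaged over classes, neuron-like cells had members at 2.34% and 2.06% of UMIs and non-neuronal classes at 1.43% and 1.18%. The difference was 0.893 percentage points ± 0.013 (SD, n = 2 mice), with 0.902 in mouse 1 and 0.884 in mouse 2. Each complex took part: complex I was at 0.741% in neuron-like and 0.438% in non-neuronal classes, complex III at 0.208% and 0.128%, complex IV at 0.623% and 0.361% and complex V at 0.592% and 0.353%. Leaving out the neuron-like clusters with few members raised the difference to 1.40 points, as removing low values from one side must. The low-member astrocyte-like and oligodendrocyte precursor-like clusters were kept. Ribosomal protein genes ran the other way, at 2.997% in neuron-like and 4.98% in non-neuronal classes, and mitochondrially encoded subunits were nearly level, at 3.78% and 3.85%.

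**Figure D2:**
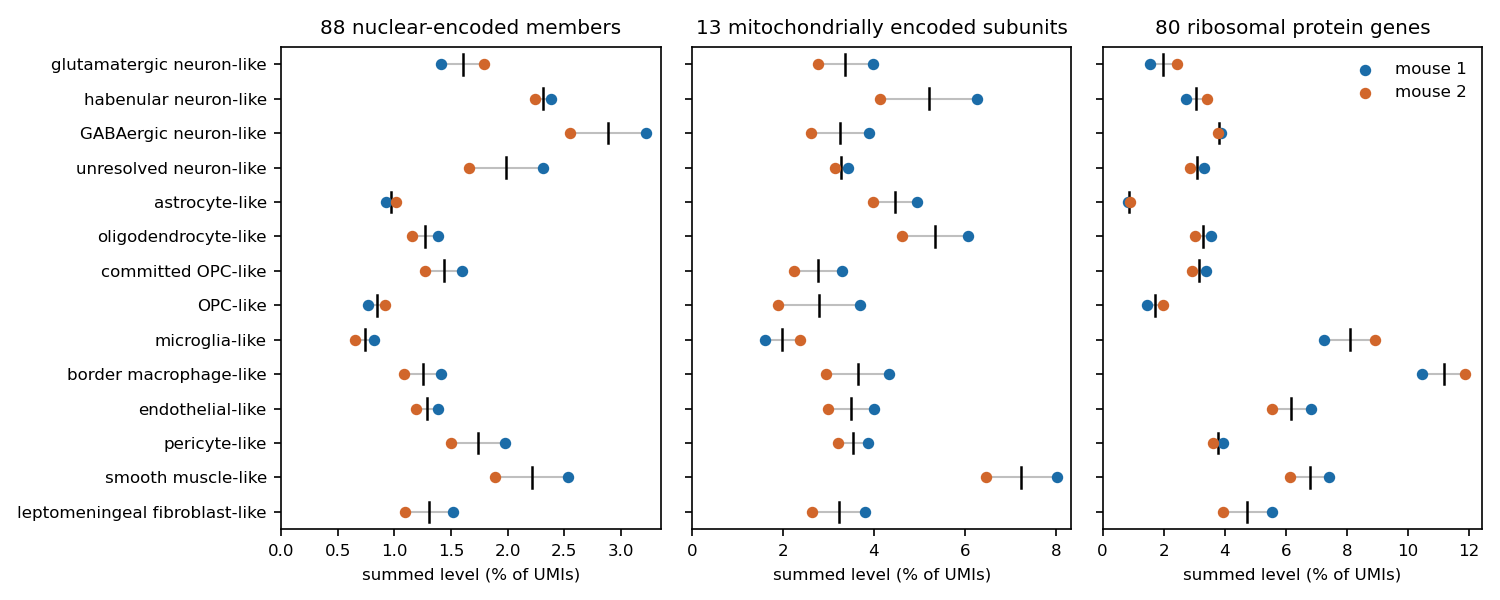
Summed level of the 88 members, of the 13 mitochondrially encoded subunits and of 80 ribosomal protein genes, in % of UMIs, by class. Points are the 2 mice, the grey line joins them and the black bar is their mean; with all clusters included, members are at 3.23% and 2.55% in GABAergic and 2.39% and 2.24% in habenular neuron-like cells.

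Nuclear-encoded members and the mitochondrially encoded subunits they assemble with did not keep one ratio. Members per mitochondrially encoded UMI were 0.829 and 0.971 in GABAergic neuron-like cells, the highest class in both mice. They were 0.186 and 0.254 in astrocyte-like cells and 0.228 and 0.250 in oligodendrocyte-like cells, the lowest by the mean. Smooth muscle-like cells had many of both, with mitochondrially encoded UMIs at 8.02% and 6.46%, and a ratio of 0.316 and 0.292. The mice differed in glutamatergic neuron-like cells, with 0.356 and 0.647, and in oligodendrocyte precursor-like cells, with 0.208 and 0.486. Low-member clusters are pooled into these classes. Cluster 30 had members at 0.230% and 0.269% and mitochondrially encoded UMIs at 4.39% and 4.09%. It held 59 of 144 and 22 of 966 precursor-like cells. Cluster 15 held 278 of 1030 and 39 of 362 astrocyte-like cells. Cluster 7 held 69 of 205 and 732 of 1601 glutamatergic neuron-like cells. Their part in the ratios was not tested.

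By complex, the members of highest level over classes were Ndufa13 in complex I (a mean of 321.3 CPM), Uqcrh in complex III (329.4 CPM), Cox8a in complex IV (603.4 CPM) and Atp5b, the catalytic beta subunit, in complex V (376.2 CPM). The lowest were Ndufa9 (51.97 CPM), Uqcrc1 (77.41 CPM), Cox8b (0.197 CPM) and Atp5mpl (151.2 CPM). Among the assembly factors Ndufaf2 was highest (67.22 CPM) and Ndufaf1 lowest (12.77 CPM). Of the 81 members with a mean of at least 20 CPM, 56 were highest in GABAergic neuron-like cells, 8 in smooth muscle-like cells and 6 in habenular neuron-like cells. These ranks use the mean of both mice. The top class differed between the mice for some, among them Ndufa4, Uqcrh and Cox7c (GABAergic by the mean) and Atp5e, Ndufb7 and Atp5l (smooth muscle). Without the low-UMI neuron-like clusters 23 were highest in GABAergic and 44 in habenular neuron-like cells. In 53 the lowest level was in microglia-like cells and in 13 in oligodendrocyte precursor-like cells. From highest to lowest class the ratio was 2.46 for Ndufa9, 9.09 for Atp5g3, 9.39 for Ndufa5 and 20.8 for Ndufa4, whose lowest class was pericyte-like cells.

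The comparison of neurons with other cells asked which members carry the overall difference. Tests used edgeR's quasi-likelihood model with mouse as a block. Called genes had a p below 0.05 after Benjamini-Hochberg adjustment over all genes and differed by 1 or more on the log2 scale. Of 87 members tested, 15 were called higher and 2 lower in neuron-like cells, and 24.3% of all 17216 genes were called higher and 14.2% lower. The members' share of higher calls was thus below that of all genes, although 81 of 87 had a positive log2 fold change and their median was 0.66 against 0.05 for all genes. Called higher were 6 complex I genes, 1 assembly factor, 5 complex IV genes and 3 complex V genes, and 0 of the 8 complex III genes, although all 8 passed the adjusted p with smaller differences. Without the 4 low-UMI neuron-like clusters 31 members were called higher, the 15 among them. The members' median was then 0.92 and that of all genes 0.04. The share of all genes called under that setting is not given here, so the rise cannot be read as particular to members.

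Ndufa4, a subunit of complex IV, was at 847.1 and 778.1 CPM in neuron-like classes and at 280.8 and 255.7 CPM in the others, a log2 difference of 1.63 ± 0.12 (SE, adjusted p = 9.31e-11). Its level was high in every neuron-like class, from 461 CPM upward, and low in pericyte-like cells. Atp5g3 was at 403.2 and 435.7 CPM against 135.5 and 148.6 CPM, a log2 difference of 1.49 ± 0.09 (adjusted p = 6.73e-12). Cox5a, a core-associated subunit of complex IV, was at 450.7 and 440.4 CPM against 171.3 and 149.6 CPM (log2 1.39 ± 0.10). The groups' means did not overlap between mice for these 3 genes. Atp5md, Ndufa5 and Atp5g1 were higher by 1.30, 1.202 and 1.16 on the log2 scale. Ndufa4l2 and Cox6b2 were the 2 called lower, by -2.97 and -1.37. The call of Cox7b2 rests on classes with 0 UMIs, and its levels are given below in place of a fold change. For Cox4i2 the model gave no usable fold change in this comparison, since border macrophage-like cells held 0 UMIs.

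Among the neurons, glutamatergic neuron-like cells had lower members than GABAergic neuron-like cells, with 79 of 87 log2 fold changes below 0 and a median of -0.55, against 0.12 for all genes. Ribosomal protein genes moved with them, with 0 of 80 positive and a median of -0.66, and low-member cluster 7 made up 69 of 205 and 732 of 1601 glutamatergic neuron-like cells. Without the low-UMI clusters 67 of 87 members were below 0 with a median of -0.22, and the calls were 2 and 2. Members were then at 1.78% and 2.42% of UMIs against 3.23% and 2.55%. In the full classes 2 members were called higher and 2 lower, where 7.13% and 4.83% of all genes were. The 2 higher were Cox6a2 and Cox7b2 and the 2 lower Cox6b2 and Ndufaf2, a complex I assembly factor. Ndufaf2 was at 39.4 and 42.5 CPM in glutamatergic and 108.4 and 111.1 CPM in GABAergic neuron-like cells, a log2 difference of -1.13 ± 0.24 (adjusted p = 0.0027). With DESeq2 size factors 5 members were called lower and 2 higher, where that scaling moved the median of all genes by -0.12. Counting fold alone, mouse 1 without mouse 2 had 30 members lower by the same margin and mouse 2 without mouse 1 had 3. How many of all genes reached that fold in 1 mouse is not given here, so these counts cannot be read as particular to members. Haemoglobin genes differed between the mice in GABAergic neuron-like cells, at 0.859% and 0.00279% of UMIs, and their part in this was not tested.

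Habenular neuron-like cells had members above glutamatergic neuron-like cells by a median of 0.34 (all genes -0.04), with 71 of 87 positive. Ribosomal protein genes (78 of 80 positive, median 0.53) and mitochondrially encoded subunits (13 of 13, median 0.52) moved the same way, and their part in the result was not tested. Low-member clusters made up 58 of 148 and 145 of 371 habenular neuron-like cells; without the low-UMI clusters the members' median was 0.40, with 74 of 87 positive. Called higher were Uqcr11 and Cox6b2 and called lower Cox6a2 and Cox7b2, 2 in each direction, against 8.82% and 11.6% of all genes. Uqcr11, a small subunit of complex III, was at 479.7 and 407.3 CPM in habenular and 162.0 and 217.5 CPM in glutamatergic neuron-like cells, a log2 difference of 1.08 ± 0.27 (adjusted p = 0.0044). In mouse 1 alone, 11 members were higher by the same fold and in mouse 2 alone 2 were, with no count over all genes given here.

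Astrocyte-like cells, which support neurons and take up transmitter, had lower levels of most members. Of 87 members, 30 were called lower and 2 higher than in neuron-like cells, against 21.8% and 21.5% of all genes, with a median of -0.88 (all genes 0.02). The called-lower genes were 11 of complex I, 1 assembly factor, 3 of complex III, 10 of complex IV and 5 of complex V. Ndufa1, a small membrane subunit of complex I, was at 35.7 and 31.4 CPM in astrocyte-like cells against a mean of 178.1 CPM in neuron-like classes, a log2 difference of -2.17 ± 0.23 (adjusted p = 7.52e-08). Ndufa4, Ndufb5, Ndufa11, Cox7a2l and Atp5g1 were lower by -1.54, -1.47, -1.43, -1.42 and -1.42. Without the low-UMI neuron-like clusters 61 members were called lower, all 30 among them. The members' median was then -1.15 and that of all genes 0.04. The share of all genes called under that setting is not given here. Ribosomal protein genes moved with the members here, with 74 of 80 called lower, and in astrocyte-like cells 2 clusters differed, one with members at 1.11% and 1.05% and one at 0.418% and 0.294% of UMIs; their part in the result was not tested. Cox6b2 and Cox7b2 were the 2 called higher.

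Oligodendrocyte-like cells, the myelinating glia, held more members than their precursor-like cells. Here 36 of 87 members were called higher and 3 lower, against 15.6% and 21.4% of all genes, with a median of 0.93 (all genes 0.05). Called higher were 17 complex I, 4 complex III, 7 complex IV and 8 complex V genes. Cox4i1, the common version of subunit 4, was at 648.8 and 592.7 CPM in oligodendrocyte-like and 206.0 and 241.3 CPM in precursor-like cells, a log2 difference of 1.92 ± 0.25 (adjusted p = 2.12e-06). Ndufa3, Cox6a1, Cox7a2l, Cox6c and Atp5g1 were higher by 1.73, 1.65, 1.63, 1.56 and 1.505. Cox7b2, Ndufaf6 and Cox6b2 were the 3 called lower. With DESeq2 size factors, which moved the median of all genes by -0.25, 19 members were called higher. By fold alone mouse 1 gave 61 higher and mouse 2 gave 16, with no count over all genes given here. Mitochondrially encoded and ribosomal protein genes rose too, 13 of 13 and 76 of 80. Precursor-like cluster 30 held members at 0.230% and 0.269% of UMIs against 1.05% and 0.927% in cluster 5. It made up 59 of 144 precursor-like cells in mouse 1 and 22 of 966 in mouse 2. The part of these differences in the result, and in the split between the mice, was not tested.

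In the vessel wall, mural-like cells (pericyte-like and smooth muscle-like) had 8 members called higher and 2 lower than endothelial-like cells, where 10.5% of all genes were called higher and 12% lower. The median of members was 0.42 and of all genes -0.10. Cox4i2 and Ndufa4l2 led, and Cox6b2, Cox8a, Ndufs7, Ndufa13 and Ndufb2 were among the others. Cox8a was at 939.2 and 665.7 CPM in pericyte-like, 1566 and 1118 CPM in smooth muscle-like and 373.9 and 305.7 CPM in endothelial-like cells, a log2 difference of 1.48 ± 0.25 (adjusted p = 8.40e-05). Ndufs7, a core subunit of complex I, was higher by 1.19 ± 0.21 (adjusted p = 0.00017). The 2 lower were Ndufa4 (-1.59) and Ndufaf7 (-1.41). For Ndufa4 only pericyte-like cells were low, at 50.6 and 44.7 CPM. Smooth muscle-like cells had 454.5 and 377.8 CPM, and endothelial-like cells 422.3 and 358.0 CPM.

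Pericyte-like cells had lower members than smooth muscle-like cells in 75 of 87 cases, with a median of -0.53 (all genes 0.06). Called higher were Cox4i2 and Cox6b2 and called lower Ndufa4, Uqcrh, Ndufa13 and Atp5g2, against 4.57% and 5.97% of all genes. Ndufa4 was at 50.6 and 44.7 CPM in pericyte-like and 454.5 and 377.8 CPM in smooth muscle-like cells, a log2 difference of -3.37 ± 0.33 (adjusted p = 5.77e-07). Ribosomal protein genes fell with them, 55 of 80, and mitochondrially encoded genes, 10 of 13; their part in the members' difference was not tested.

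**Figure D3:**
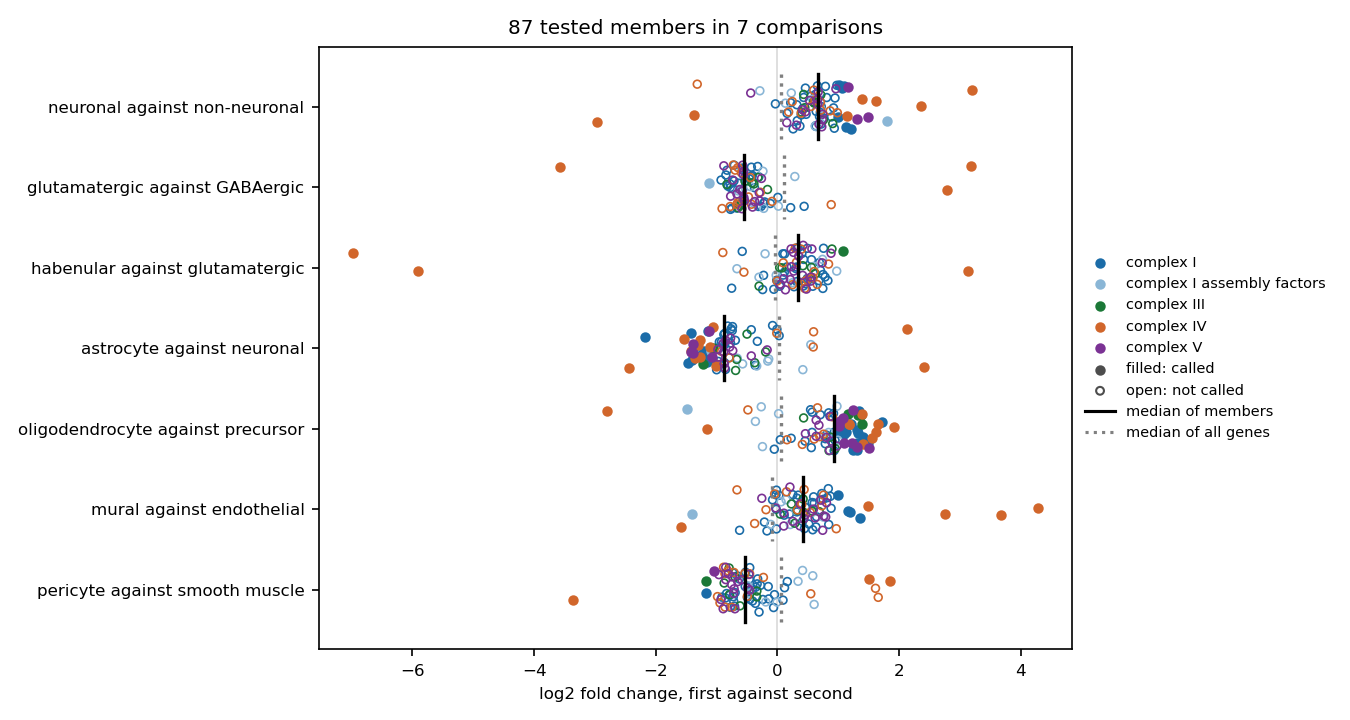
Log2 fold change (x axis) of the 87 tested members in the 7 comparisons (y axis), coloured by complex, with filled points for called members. The black bar is the median of members and the dotted line that of all genes; Cox6a2, Cox7b2, Cox4i2, Ndufa4l2 and Cox6b2, all complex IV, account for the widest values.

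Of the 4 tissue isoforms, Cox6a2, Cox4i2 and Ndufa4l2 were concentrated in a few classes and Cox7a1 was not. Cox6a2 (chr7:128205435-128206387, minus strand, GRCm38) was highest in glutamatergic neuron-like cells, at 107.4 CPM in mouse 1 and 137.6 CPM in mouse 2. GABAergic neuron-like cells had 23.0 and 19.3 CPM and microglia-like cells 6.42 and 9.75 CPM, and these first 3 classes did not overlap. The 7 glutamatergic markers summed to 285.6 and 441.6 CPM in microglia-like cells, all 7 with a UMI, and their part in the microglial level was not tested. The remaining 11 classes lay between 0 and 5.21 CPM, and each overlapped the next by mean level, so they could not be fully ordered. The glutamatergic level was above the GABAergic by 2.79 ± 0.46 on the log2 scale (adjusted p = 0.00027), and habenular neuron-like cells, at 0.262 and 2.01 CPM (2 and 21 UMIs), were below the glutamatergic by -6.97 ± 0.58 (adjusted p = 3.28e-08). Cox6a2 made up 38.8% and 44.9% of the UMIs of Cox6a1 and Cox6a2 in glutamatergic neuron-like cells, 6.86% and 8.47% in GABAergic neuron-like cells and 5.86% and 11.6% in microglia-like cells. A UMI of Cox6a2 was seen in 69.3% and 58.2% of glutamatergic neuron-like cells (median depth 87176 and 43893 UMIs) and in 1.78% and 3.33% of oligodendrocyte-like cells (25257 and 14526 UMIs). Thinned to 2000 UMIs per cell, these were 13.7% and 16.5% against 0.204% and 0.395%.

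Within the glutamatergic neuron-like class Cox6a2 differed by cluster. In cluster 12, led by Nptxr, C1ql3, Necab1 and Calb2, it was at 165.8 and 187.4 CPM, and in cluster 13, led by Cck, Tnnt1, Pcp4 and Ramp3, at 134.0 and 184.8 CPM. Cluster 7, one of the low-member clusters, had 5.27 and 17.8 CPM. Cox6a1 was low there too, at 25.9 and 20.6 CPM against 207.7 and 205.8 CPM in cluster 13. Cox7b2 was not: it had 31.8 and 37.0 CPM in cluster 7 and 15.96 and 20.1 CPM in cluster 13.

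Cox4i2 (chr2:152754173-152765037, plus strand) was highest in pericyte-like cells, at 691.3 and 384.2 CPM. Smooth muscle-like cells had 166.6 and 137.2 CPM, below the pericyte-like range, and endothelial-like cells 12.2 and 15.4 CPM. Every other class was at 13.6 CPM or below, and border macrophage-like cells had 0 UMIs in both mice, which allows 1.61 and 6.69 CPM. Mural-like cells were above endothelial-like cells by 4.29 ± 0.47 (adjusted p = 1.03e-06) and pericyte-like above smooth muscle-like cells by 1.504 ± 0.43 (adjusted p = 0.0267). The latter call was lost with DESeq2 and without the mouse block. Cox4i2 reached 57.4% and 45.5% of the UMIs of Cox4i1 and Cox4i2 in pericyte-like cells, 17.2% and 19.0% in smooth muscle-like and 2.96% and 3.85% in endothelial-like cells. A UMI of Cox4i2 was found in 95.4% and 81.3% of pericyte-like cells (median 7429 and 4680 UMIs) and in 1.22% and 0.201% of microglia-like cells (12974 and 9461 UMIs). At 2000 UMIs per cell these were 70.6% and 59.8% against 0.122% and 0.

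Ndufa4l2 (chr10:127514967-127517154, plus strand) had the same leading classes. Pericyte-like cells had 1378 and 956.8 CPM, smooth muscle-like cells 310.0 and 312.5 CPM, and neither overlapped the other or leptomeningeal fibroblast-like cells (51.0 and 94.2 CPM). The latter overlapped endothelial-like cells (32.9 and 54.6 CPM). Mural-like cells were above endothelial-like cells by 3.67 ± 0.63 (adjusted p = 0.00014). The difference between pericyte-like and smooth muscle-like cells, 1.61 ± 0.60, was not called (adjusted p = 0.098). In pericyte-like cells Ndufa4l2 made up 96.5% and 95.5% of the UMIs of Ndufa4 and Ndufa4l2, since Ndufa4 itself was at 50.6 and 44.7 CPM, the lowest of all classes. The share was 40.5% and 45.3% in smooth muscle-like, 13.6% and 37.5% in leptomeningeal fibroblast-like and 7.24% and 13.2% in endothelial-like cells, and at most 3.21% in any other class. The 6 pericyte markers summed to 3978 and 4314 CPM in smooth muscle-like, 3899 and 3069 CPM in leptomeningeal fibroblast-like and 1236 and 1936 CPM in endothelial-like cells, all 6 with a UMI, and their part in these shares was not tested. In committed oligodendrocyte precursor-like cells of mouse 1 Ndufa4l2 was at 13.97 CPM and the pericyte markers at 226.3 CPM, against 0.524 and 11.5 CPM in mouse 2.

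Cox7a1 (chr7:30184144-30186078, plus strand) was low everywhere. Its highest level was 13.2 and 8.30 CPM in smooth muscle-like cells, followed by 12.04 and 8.94 CPM in pericyte-like cells, and it was not called in any of the 7 comparisons. It made up at most 2.31% of the UMIs of Cox7a1, Cox7a2 and Cox7a2l in any class and mouse. Smooth muscle-like, pericyte-like and GABAergic neuron-like cells (12.09 and 3.71 CPM) overlapped, so no order can be given among them. Leptomeningeal fibroblast-like cells, at 6.80 and 6.73 CPM from 2 and 3 UMIs, lay below both mural-like classes and within the GABAergic range.

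**Figure D4:**
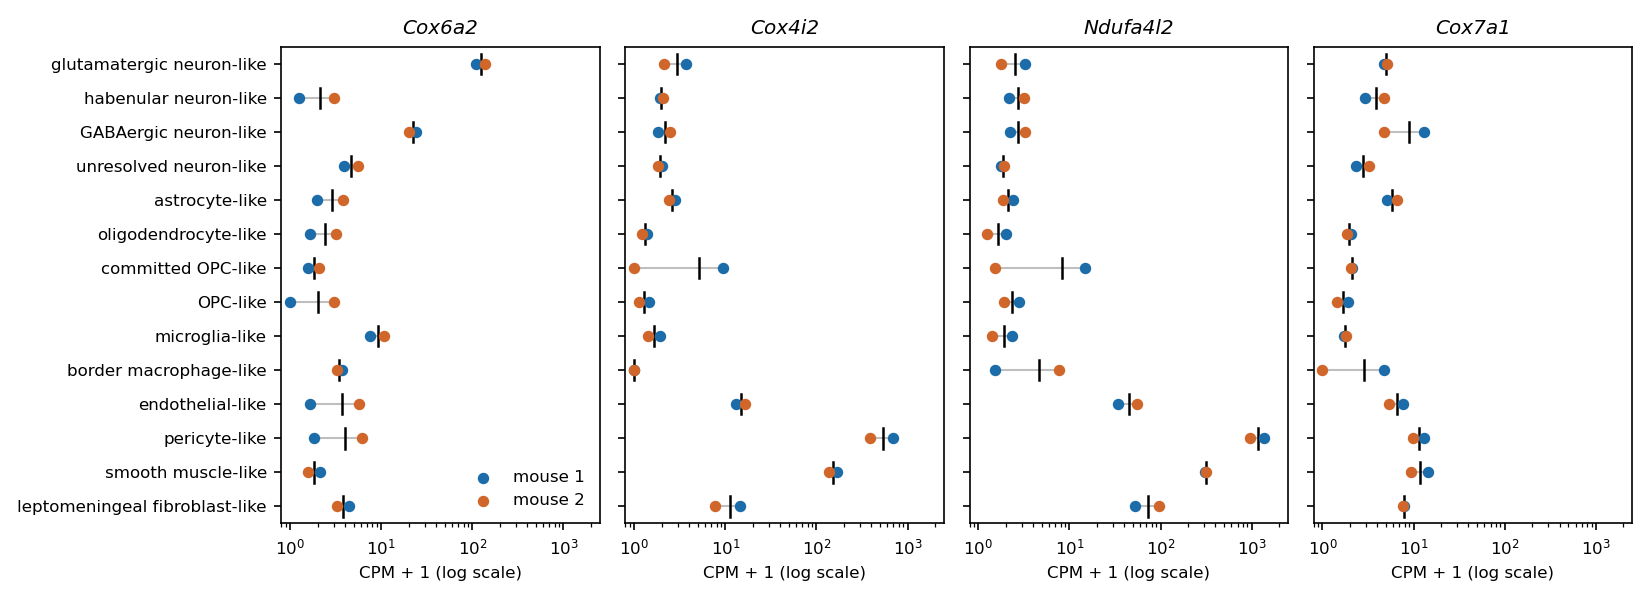
Level of the 4 tissue isoforms by class, as CPM + 1 on a log scale. Points are the 2 mice and the bar their mean; Cox6a2 stands out in glutamatergic neuron-like cells and Cox4i2 and Ndufa4l2 in pericyte-like and smooth muscle-like cells, whereas Cox7a1 stays at or below 13.2 CPM.

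Other families shifted between classes too. The 3 genes for the ATP synthase c subunit encode the same mature protein with different targeting sequences. Atp5g2 made up 15.6% and 16.2% of their UMIs in glutamatergic neuron-like cells and 57.5% and 54.9% in microglia-like cells, with other glia and vascular classes between. Atp5g3 ran the other way, at 49.0% and 45.8% in glutamatergic neuron-like and 17.3% and 20.2% in microglia-like cells. Cox7a2l held 65.5% and 74.98% of the Cox7a family in microglia-like cells, and 24.9% and 28.3% in glutamatergic neuron-like cells. In the latter Cox7a2 led with 74.2% and 70.9%.

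Cox7b2 and Cox6b2, relatives of Cox7b and Cox6b1 best known from testis, were rare and differed between classes. Cox7b2 was at 18.6 and 21.9 CPM in glutamatergic neuron-like and 11.9 and 17.9 CPM in astrocyte-like cells, and at most 6.87 CPM elsewhere. It made up 5.98% and 5.87% of the Cox7b family in glutamatergic neuron-like and 6.32% and 8.53% in astrocyte-like cells. Cox6b2 was at 31.3 and 20.8 CPM in pericyte-like, 34.0 and 13.5 CPM in leptomeningeal fibroblast-like and 15.6 and 21.5 CPM in committed oligodendrocyte precursor-like cells. It was at 10.7 and 13.5 CPM in astrocyte-like cells and 0.477 and 0.677 CPM in glutamatergic neuron-like cells. Its share of the Cox6b family was 8.71% and 7.63% in pericyte-like and 8.08% and 8.73% in astrocyte-like cells. Cox8b, the muscle version of subunit 8, had 32 UMIs in all tested classes and was the one member too rare to test.

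**Figure D5:**
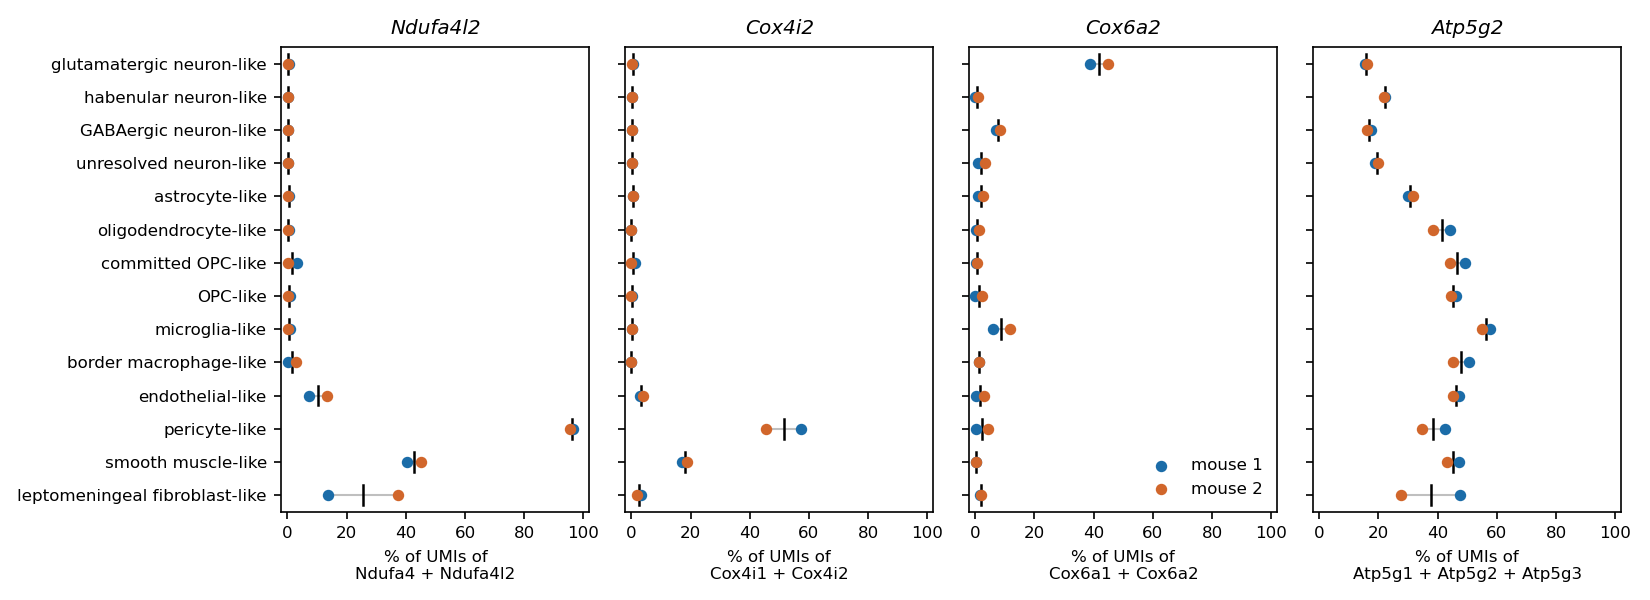
Share of 4 isoforms in the UMIs of their family (x axis, %), by class. Points are the 2 mice and the bar their mean; Ndufa4l2 takes 96.5% and 95.5% in pericyte-like cells and Cox6a2 38.8% and 44.9% in glutamatergic neuron-like cells, while the Atp5g2 share differs between all neuron-like and microglia-like cells.

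The genes most alike to each tissue isoform were sought over the 28 sums per mouse and class, by Pearson's r of log2(CPM + 1) across 11739 genes. The sums of one class share its cell type and those of one mouse its library, so r is a description. For Cox6a2 these were Tspear (0.86), Gal (0.85) and Gabrd (0.84), all highest in glutamatergic neuron-like cells. For Cox4i2 they were Higd1b (0.98), Tbx3os1 (0.98) and Ecm2 (0.97), and for Ndufa4l2 Gper1 (0.98), Higd1b (0.97) and Enpep (0.97), all highest in pericyte-like cells. For Cox7a1, at its low level, they were P4ha2 (0.82), Abhd14b (0.81) and Il17rc (0.81).

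Other genes of the pathway followed the members only in part. Complex II, encoded by 4 nuclear genes, had 1 called gene in each vessel comparison. Sdhc was higher in mural-like than endothelial-like cells (1.17 ± 0.20), where 10.5% of all genes were called higher and 12% lower. It was lower in pericyte-like than smooth muscle-like cells (-1.38 ± 0.22), where 4.57% and 5.97% of all genes were called. Among 7 electron carriers and side entries, Gpd2, the mitochondrial glycerol phosphate dehydrogenase, was at a mean of 16.5 CPM in mural-like and 343.1 CPM in endothelial-like cells (-4.50 ± 0.26). Gpd2 was higher in astrocyte-like than neuron-like cells (2.51 ± 0.19), against the members' direction. There 4 of the 7 were called higher and 1 lower, where 21.5% and 21.8% of all genes were. In neuron-like cells 2 of the 7 had a positive log2 difference from non-neuronal classes, with a median of -0.28. Cycs, cytochrome c, was called higher (1.09 ± 0.12) and Etfb, a subunit of the electron transfer flavoprotein, lower (-1.33 ± 0.08).

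Of 35 tested assembly factors outside the name rule, 4 were called higher and 0 lower in neuron-like cells. Of all genes 24.3% were called higher and 14.2% lower there, so both counts were under those shares. Ttc19, a complex III factor, was at 1.48 ± 0.11. Of 16 genes of the tricarboxylic acid cycle and pyruvate dehydrogenase, 3 were called higher and 1 lower in neuron-like cells, also under those shares. Among them were Idh3a (1.75 ± 0.09) and Suclg2 (-2.0008 ± 0.16). Among 10 regulators of mitochondrial gene expression 3 were called higher and 1 lower in neuron-like cells, near those shares. Ppargc1a, a coactivator of mitochondrial genes, was at a mean of 99.1 CPM over neuron-like and 37.5 CPM over non-neuronal classes. The model's log2 difference of 3.50 ± 0.18 is larger because it averages logs over classes, some of them near 0. Ppargc1a was also higher in astrocyte-like than in neuron-like cells (1.99 ± 0.24), at a mean of 277.6 against 99.1 CPM, where the members were lower. In oligodendrocyte-like cells, where members were higher than in precursor-like cells, Ppargc1a was at a mean of 1.98 against 52.9 CPM (-4.30 ± 0.39). Its relative Ppargc1b was at 81.7 CPM in mural-like and 2.44 CPM in endothelial-like cells (5.23 ± 0.42). Of 13 hypoxia-responsive genes, 3 were called higher and 3 lower in mural-like against endothelial-like cells, against 10.5% and 12% of all genes. Epas1, a hypoxia-inducible transcription factor, was higher in astrocyte-like than neuron-like cells (4.87 ± 0.27). There 7 of the 13 were called higher and 3 lower, against 21.5% and 21.8% of all genes. In pericyte-like against smooth muscle-like cells P4ha1 (1.15 ± 0.25) and Adm (3.73 ± 0.88) were called higher and Higd1a (-1.18 ± 0.25) lower. Of all genes 4.57% and 5.97% were called there.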

How the data were processed

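Raw UMI counts per gene and barcode were deposited by the authors as 1 matrix per mouse. Cell Ranger 7.1.0, Seurat 5 and the mm10 build are named in the submitters' processing notes, with no role for Seurat. No label states whether intron reads were counted or how reads shared by near-identical gene copies were assigned. Barcodes with at least 500 genes, 1000 UMIs and at most 15% mitochondrial UMIs were kept, and Scrublet removed 181 and 262 doublets. Its calls were 2.84% and 2.78% of cells, under the expected 6.31% and 9.69%. Clustering used scanpy 1.11.5 (2000 variable genes, 30 components, Leiden resolution 1), without members, other listed genes, mitochondrial, ribosomal or haemoglobin genes. Clusters with mixed markers stayed unnamed, and ependymal-like cells (4 and 29) were too few.

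UMIs were summed per mouse and class and tested with edgeR 4.0.16 (R 4.3.3, TMM, filterByExpr, robust quasi-likelihood, class plus mouse; 17216 genes, 13 residual degrees of freedom). DESeq2 1.42.0 was an alternative. Both animals contribute to each class, so mouse is a block; deviations of classes within a mouse correlated at a median of 0.21 (0.0596 to 0.472 over 91 class pairs). The block removes the overall difference between the mice. The p-values therefore rest on how far differences between classes varied from one mouse to the other, pooled over the 14 classes. With 2 animals they do not measure the spread among mice in general. The test script was tested on simulated data. Shares of UMIs carry counting error only. In each comparison up to 6 members per direction were named, those called with the largest change, at least 50 CPM on the higher side and the same direction in both mice; the 4 tissue isoforms and their families, the extremes of each complex and up to 3 called genes per list were named too. Cox6b2, Cox7b2 and other called members outside that rule were chosen after their values were seen. Members, lists and comparisons were chosen with earlier results of these data known. The result of 1 named member is not reported here.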

Additional observations from a re-analysis of the deposited data

Results flagged for a closer look

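Ndufb1-ps carried a strong signal but was outside the comparisons, because its name marks a pseudogene. It held 63987 UMIs over both matrices. The annotation (GENCODE vM21) lists it on chromosome 12 from 101968090 to 101977068 as a lncRNA from a bidirectional promoter. Its level was 380.9 and 317.2 CPM in GABAergic neuron-like cells, 112.9 and 90.1 CPM in microglia-like cells, 88.5 and 86.7 CPM in astrocyte-like cells and 72.4 and 89.7 CPM in oligodendrocyte precursor-like cells. Groups of 2 mice are too small for a check of single outlying samples.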

How the results depend on the processing

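Under other settings (other scaling, no gene filter, DESeq2, no block, a 5% mitochondrial limit, mitochondrial genes left out, doublets kept, at least 3000 UMIs, resolution 0.5) and the one added after seeing the data (no low-UMI neuron-like clusters), 144 counts and overall values stayed close to those reported and 26 moved. Higher calls in neuron-like cells rose from 15 to 27 with the 5% limit and 31 without low-UMI clusters. Lower calls in astrocyte-like cells rose from 30 to 57 and 61. The share of all genes called under these settings is not given here, so these rises cannot be read as particular to members. Leaving out the low-UMI clusters also removed low-member cells on the neuronal side only. Glutamatergic against GABAergic gave 1 higher with no replicate block, 5 lower with DESeq2 size factors or the DESeq2 test, and 1 lower at resolution 0.5. Habenular against glutamatergic gave 5 higher with the 5% limit. Oligodendrocyte against precursor gave 19 higher with either DESeq2 setting. Pericyte against smooth muscle gave 1 higher with DESeq2 or no replicate block. No other count moved by over 1.5 times without the block. The overall neuronal difference of 0.893 points was 0.923 without mitochondrial genes, 1.19 with the 5% limit, 0.694 with doublets kept, 0.733 at resolution 0.5 and 1.40 without low-UMI clusters, where habenular (3.46% and 2.93%) rather than GABAergic neuron-like cells (3.23% and 2.55%) had the largest share. Leaving out one mouse, by fold alone, gave 2 to 4 higher and 3 to 30 lower (glutamatergic against GABAergic), 2 to 11 higher (habenular), 16 to 61 higher (oligodendrocyte), and 4 to 4 higher and 4 to 9 lower (pericyte). How many of all genes passed by fold alone is not given here, and the cause was not tested. Of single genes, 3 that were not called changed sign: Cox7a1 in neuronal cells (-0.17) and Ndufa4l2 in glutamatergic against GABAergic (0.33) at resolution 0.5, and Ndufa4l2 in habenular against glutamatergic (-0.050) with doublets kept. Calls were lost for Ndufaf2 in glutamatergic against GABAergic (-0.92, resolution 0.5), Atp5g2 in pericyte against smooth muscle (-0.97, doublets kept) and Cox4i2 there (1.46 with DESeq2, 1.59 with no replicate block). Cox4i2 in neuron-like cells, with no usable value otherwise, was called lower with DESeq2 (-1.70) and with doublets kept (-1.94). With doublets kept there was no GABAergic class, and with the 5% limit no smooth muscle class, so those comparisons gave no value. Depth limits the rare isoforms: 3 UMIs correspond to up to 10.2 CPM in leptomeningeal fibroblast-like cells.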
